A study of Homo sapiens with 6 samples.

Results

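Divergent-transcript lncRNAs are long noncoding RNAs read from the opposite strand and away from the start of a coding gene, and carry that gene's symbol followed by -DT. *RAB30-DT*, the RNA that the study depleted, is one of them, and the values below describe the others that SK–Hep–1 cells expressed. Members were the lncRNA genes of GENCODE Release 44 with a symbol ending in -DT, without *RAB30-DT*, and with a mean of at least 1 TPM (a level scaled for transcript length and to the same total in each library) over all libraries. Of 589 such lncRNA genes among 62700 genes, 120 were members. Members were thus chosen by their mean TPM over both groups, so the levels are a description, and the mean was at least 1 TPM in both groups for 100 members, in knockdown cells alone for 13 and in control cells alone for 7. RNA–Seq covered 6 libraries of SK–Hep–1, an established human liver tumour line that the paper calls endothelial-derived: 3 of control cells and 3 of *RAB30-DT* knockdown cells. The control libraries were titled as carrying a control shRNA, whereas their genotype label read WT. The methods describe pLKO.1 lentiviral shRNA vectors and puromycin selection, more than 1 shRNA against *RAB30-DT* was built, and the labels do not say which of them each knockdown library carried. Nothing in the labels says that the libraries of a group came from separate cultures, so the tests measure the spread between these libraries, which may be technical.

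Most active promoters of coding genes start RNA polymerase II in both directions. The upstream product is usually a short RNA that is cut at early polyadenylation signals and removed by the nuclear exosome, with help of the Integrator complex and of the cap-binding complex and its partner ARS2, whereas U1 snRNP protects the coding direction from early cleavage. An annotated divergent transcript is an upstream product that is spliced or long enough, and stable enough, to be cloned as a gene of its own. As poly-T beads were used to purify the RNA, mainly polyadenylated products were captured here.

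Each member was paired with the protein-coding gene it is named after. All 120 partners passed the same level filter and all lay on the opposite strand. The annotated 5′ ends of the pair lay within 1000 bases of each other for 111 pairs and within 300 bases for 87. In 82 pairs the genes faced away from each other, with a median of 124.5 bases between the 5′ ends (range 25 to 1803), and in 38 pairs the first parts of the genes overlapped, by a median of 397.5 bases and by up to 47355 bases for *ITGB1-DT*. The sequences of 5 such promoters are shown, because these are members whose ratio to the partner changed and for which 1 RefSeq window (GRCh38.p14) holds both 5′ ends. Each window runs 5′ to 3′ in the direction of the divergent transcript. The capitals run from 1 annotated 5′ end to the other, so that both transcripts start at an edge of the capitals, and they mark shared bases in *GSK3B-DT* and bases between the transcripts in the others.
C2orf74-DT (chr2:61144926-61145225, minus strand): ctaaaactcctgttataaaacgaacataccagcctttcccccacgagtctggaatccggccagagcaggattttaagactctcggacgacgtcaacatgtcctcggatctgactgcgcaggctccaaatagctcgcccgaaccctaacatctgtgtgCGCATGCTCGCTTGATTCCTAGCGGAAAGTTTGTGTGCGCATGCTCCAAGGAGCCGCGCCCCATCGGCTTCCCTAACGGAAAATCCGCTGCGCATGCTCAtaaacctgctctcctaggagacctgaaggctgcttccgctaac
USP46-DT (chr4:52659156-52659455, plus strand): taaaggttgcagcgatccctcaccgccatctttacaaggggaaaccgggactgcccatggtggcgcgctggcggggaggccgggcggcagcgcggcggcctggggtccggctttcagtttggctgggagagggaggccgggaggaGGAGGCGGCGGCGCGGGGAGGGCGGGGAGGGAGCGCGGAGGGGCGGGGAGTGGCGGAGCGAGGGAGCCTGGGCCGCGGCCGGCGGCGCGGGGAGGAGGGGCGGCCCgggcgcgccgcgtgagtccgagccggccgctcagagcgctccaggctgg
EIF3J-DT (chr15:44536874-44537173, minus strand): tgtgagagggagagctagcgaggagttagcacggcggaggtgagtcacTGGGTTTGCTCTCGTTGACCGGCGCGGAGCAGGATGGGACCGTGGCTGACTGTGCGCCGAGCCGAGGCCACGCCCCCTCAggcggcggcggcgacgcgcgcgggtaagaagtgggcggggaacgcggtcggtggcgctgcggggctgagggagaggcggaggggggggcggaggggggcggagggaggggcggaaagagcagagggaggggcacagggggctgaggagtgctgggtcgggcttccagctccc
GSK3B-DT (chr3:120094854-120095153, plus strand): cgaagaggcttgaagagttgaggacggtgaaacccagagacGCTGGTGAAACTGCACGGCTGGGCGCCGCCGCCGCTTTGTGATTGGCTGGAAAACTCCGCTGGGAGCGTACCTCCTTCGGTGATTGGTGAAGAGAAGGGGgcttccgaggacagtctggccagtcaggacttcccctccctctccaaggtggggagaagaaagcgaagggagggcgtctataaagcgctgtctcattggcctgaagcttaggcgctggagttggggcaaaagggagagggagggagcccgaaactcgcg
WDR5B-DT (chr3:122415956-122416255, plus strand): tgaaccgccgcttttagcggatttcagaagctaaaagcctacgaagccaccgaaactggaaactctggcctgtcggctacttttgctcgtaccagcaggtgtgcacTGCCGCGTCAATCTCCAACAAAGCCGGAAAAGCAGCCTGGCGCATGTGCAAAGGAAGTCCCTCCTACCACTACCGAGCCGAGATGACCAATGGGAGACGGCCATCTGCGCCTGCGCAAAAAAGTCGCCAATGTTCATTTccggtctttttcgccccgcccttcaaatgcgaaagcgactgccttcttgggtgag
The stretch in capitals was 100 bases for *C2orf74-DT*, 106 for *USP46-DT*, 80 for *EIF3J-DT*, 100 for *GSK3B-DT* and 139 for *WDR5B-DT*. Among the other members with a changed ratio were *MRPL20-DT* and *SLC20A1-DT*.

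RefSeq windows of 300 bases matched 98 members (112 windows) and 105 partners (144 windows), and 6 motifs were searched on both strands after the values had been seen. GGGCGG, the core of the GC box bound by SP1, occurred in 74.1% of the member windows, 68.1% of the partner windows and 45% of all 35116 windows. It lies in the windows of *USP46-DT*, *EIF3J-DT* and *WDR5B-DT*. CCGGAAG, an ETS core, occurred in 25.9%, 29.2% and 10.3%. GCATGCGC, which is part of the NRF1 motif, occurred in 7.14%, 4.86% and 3.05%, and lies in the window of *C2orf74-DT*. ACGTG, which is part of the E-box CACGTG but not limited to it, occurred in 34.8%, 28.5% and 21.4%. TGACGTCA, the cyclic AMP response element, occurred in 0.893%, 2.08% and 1.85%. TATAAA was the motif with a lower share in members (4.46%) and partners (9.03%) than in all windows (11.5%), and lies in the windows of *C2orf74-DT* and *GSK3B-DT*. Windows of a pair can cover the same bases, so members and partners are not separate samples of promoters.

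*RAB30-DT* was at 18.16, 11.51 and 13.91 TPM in the control libraries and at 11.94, 10.85 and 6.5 TPM in the knockdown libraries. The groups overlapped, and the log2 fold change of −0.55 (SE 0.27) had an adjusted p of 0.355 (limma) and an exact two-sided permutation p of 0.2, where 0.1 is the smallest possible. *RAB30*, its partner, was at 4.25 to 4.82 TPM in control and 5.43 to 7.28 TPM in knockdown libraries (log2 fold change 0.46, SE 0.21, adjusted p = 0.322). Replicate 1 of both groups stood apart in base composition: Spearman's rho between a gene's deviation from its mean level and its GC content was −0.61 in control replicate 1 and −0.52 in knockdown replicate 1, and 0.02 to 0.49 in the other libraries. Of 8 hepatocyte markers 1 reached 1 TPM (*SERPINA1*), *ALB*, *APOB*, *TTR* and *HNF4A* were listed at 0 in every library, and the summed level was 18.1 to 24.3 TPM in control and 28.3 to 37.2 TPM in knockdown libraries. None of 6 endothelial markers reached 1 TPM, *KDR* and *ERG* were at 0, and the sum was 0.13 to 0.22 and 0.36 to 0.38 TPM. Of 3 blood markers only *CD68* was expressed, with *PTPRC* at 0 and sums of 28.6 to 66.8 and 107 to 129 TPM. All 6 mesenchymal markers reached 1 TPM, with sums of 5329 to 5517 and 5636 to 6090 TPM. Among them, *VIM* was higher in every knockdown library (means of 3883 TPM in control and 4615 TPM in knockdown cells). *SPARC* was lower in every knockdown library (1497 and 1220 TPM), and the others overlapped between the groups. The part of these differences in the results below was not tested.

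Divergent transcripts were low and their partners were high. The mean level of a member ranged from 1.035 to 25.2 TPM, with a median of 2.62 TPM, and 11 members exceeded 10 TPM. The median of the partners was 29.1 TPM. In 115 of 120 pairs the partner was the higher one, by a median of 10.5 times (interquartile range 4.07 to 24.1), and by up to 4164 times for *RPL37A*, a protein of the large ribosomal subunit. The divergent transcript was the higher one in 5 pairs: 4.12 times for *WDR5B-DT*, 2.70 times for *RNF32-DT*, 1.67 times for *SLC12A2-DT*, 1.16 times for *PCCA-DT* and 1.11 times for *ZNF8-DT*. Both levels are on the TPM scale, which is scaled for length.

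**Figure D1:**
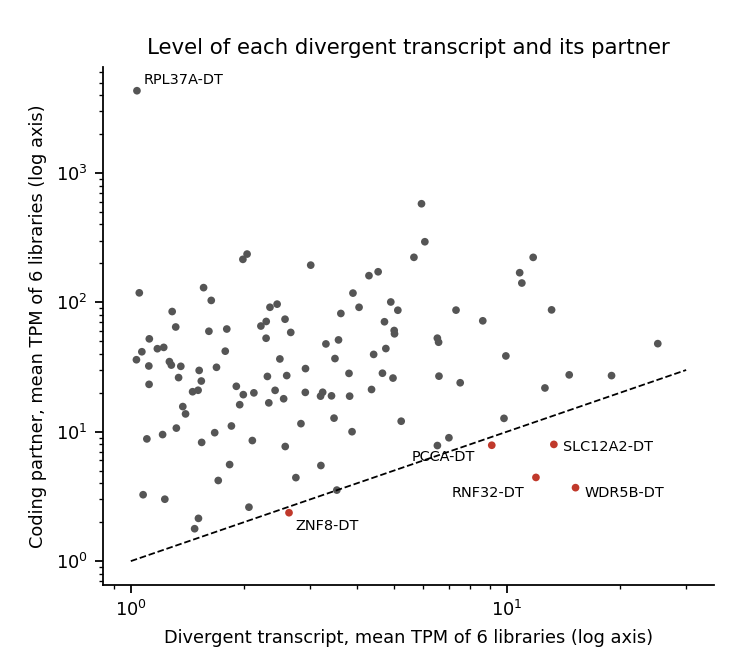
Mean TPM over 6 libraries of each divergent transcript (x axis, log) and of its coding partner (y axis, log), with a dashed line at equal levels. Of the 120 points 115 lie above the line, and the 5 red points below it are the pairs in which the divergent transcript was higher.

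Most of the highest members had fold changes near 0. *COX10-DT*, named after an enzyme of heme A synthesis, was the highest, with 27.96, 23.18 and 22.72 TPM in control and 29.28, 25.16 and 22.99 TPM in knockdown libraries. Its level overlapped between the groups (log2 fold change 0.06, SE 0.18, adjusted p = 0.890). *RNASEH1-DT*, beside the gene of a nuclease that removes RNA from RNA–DNA hybrids, was second, with 15.44, 16.93 and 18.4 TPM in control and 20.81, 23.23 and 19.17 TPM in knockdown libraries. The groups did not overlap, and the difference did not pass the test (log2 fold change 0.30, SE 0.18, adjusted p = 0.432). The next in order were *WDR5B-DT* with a mean of 15.2 TPM, *C2orf74-DT* with 14.7 TPM and *SLC12A2-DT* with 13.3 TPM over all libraries. *SLC12A2-DT* lies beside the gene of the NKCC1 ion transporter and was at 14.1 ± 2.95 TPM in control and 12.6 ± 1.52 TPM in knockdown cells (SD, n = 3 each). *CTBP1-DT*, beside a transcriptional corepressor gene, was at 12.4 ± 1.84 and 13.9 ± 1.36 TPM (SD, n = 3 each), and shares 701 exon bases with *CTBP1*, the most of any pair. *ZDHHC12-DT* was at 13.9 ± 3.93 and 11.3 ± 1.23 TPM, and *RNF32-DT* at 12.5 ± 5.25 and 11.4 ± 2.22 TPM (SD, n = 3 each). Below *RNASEH1-DT* the neighbours in this order differed by less than the spread between libraries. Their partners *COX10*, *RNASEH1*, *SLC12A2*, *CTBP1*, *ZDHHC12* and *RNF32* had means of 45.1, 24.9, 7.60, 78.4, 18.5 and 3.75 TPM in knockdown cells, against 50.9, 29.4, 8.37, 96.6, 25.1 and 5.12 TPM in control cells.

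Between the groups, no divergent transcript passed the test, and this count depended on the processing. At an adjusted p under 0.05 (limma on log2(TPM + 1), Benjamini–Hochberg over 14020 genes) 0 of 120 members were called, where 1.04% of all genes tested were, and the smallest adjusted p of a member was 0.0832, for *SLC20A1-DT*. With the GC trend of each library removed, 8 of 120 members and 1191 of 14020 genes were called. With limma's arrayWeights there were 16 members and 1936 genes, and without control replicate 1 there were 3 and 317. With the replicate number as a block there were 3 and 861. The higher member counts thus went with higher counts over all genes. *SLC20A1-DT* had a log2 fold change of 1.06 and an adjusted p of 0.0230 (limma) with the GC trend removed. At an unadjusted p under 0.05 there were 21 members (17.5%), near the 16.8% of all genes tested, of which 17 had the higher and 4 the lower level in knockdown cells. The direction was uneven all the same. The log2 fold change was above 0 for 85 members (70.8%), against 46.3% of all genes tested. All knockdown libraries were above all control libraries for 28 members (23.3%), against 9.89% of all genes, and below them for 6 members (5.0%), against 13.4%. The median log2 fold change was 0.27, with an interquartile range of −0.06 to 0.53, beside −0.04 for all genes tested. In these bulk libraries, more RNA per cell and more cells with the RNA cannot be told apart.

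**Figure D2:**
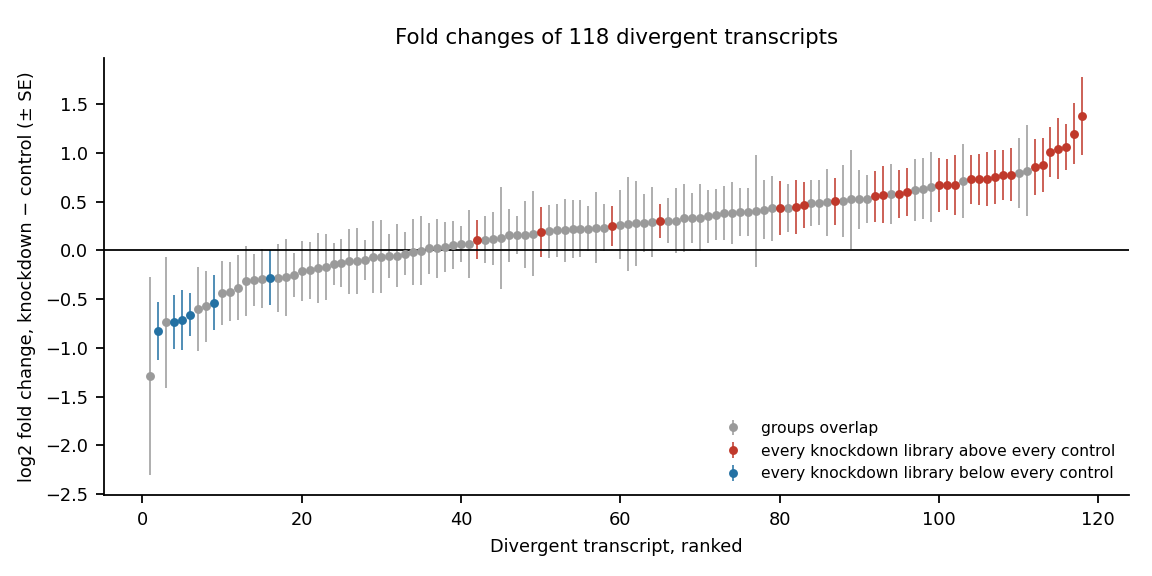
log2 fold change (knockdown minus control, log2(TPM + 1) scale, bars are ± SE from limma) of 118 divergent transcripts in rank order, without the 2 that were listed at 0 in every control library. Of the points, 83 lie above 0 and 35 below, and those without overlap of the groups, 28 higher in red and 6 lower in blue, are not limited to the ends of the order.

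This upward balance was shared with other lncRNAs. The 1471 other lncRNA genes tested had a median log2 fold change of 0.18, 65.8% of them were above 0, and all knockdown libraries were above all control libraries for 17.1% and below for 5.17%. The 345 lncRNA genes tested with an antisense (-AS) symbol had a median of 0.23. Protein-coding genes had a median of −0.06, with 9.05% above and 14.8% below without overlap, and the 120 coding partners had −0.07, with 46 above 0. Whether the members differ from the other lncRNAs was not tested, as genes are not replicates. With genes kept only where both groups had a mean of at least 1 TPM, the median was 0.24 for the 100 members, 0.17 for other lncRNAs and −0.06 for coding genes. Among the 302 genes with a -DT symbol that were detected under 1 TPM, 164 (54.3%) had the higher mean in knockdown cells, against 56.1% of 5772 other lncRNA genes under 1 TPM, and a further 166 were listed at 0 everywhere.

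**Figure D3:**
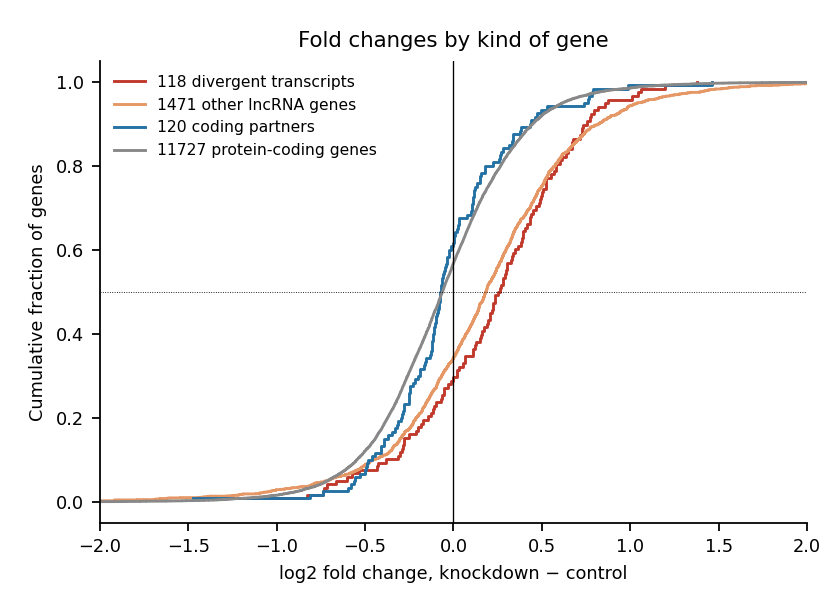
Cumulative fraction of genes (y axis) by log2 fold change (x axis, knockdown minus control, drawn from −2 to 2). The curves of 118 divergent transcripts and 1471 other lncRNA genes lie to the right of those of 120 coding partners and 11727 protein-coding genes, with medians of 0.26, 0.18, −0.07 and −0.06.

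Summed over members, the level was 499.86, 464.46 and 421.65 TPM in the control libraries and 546.63, 556.04 and 506.7 TPM in the knockdown libraries. The groups did not overlap, although the lowest knockdown sum was close to the highest control sum. From 92 to 98 members reached 1 TPM in a control library and from 106 to 110 in a knockdown library. Over all genes these numbers were 13732 to 13769 and 13742 to 14094, which overlap. The rule used the same level, with 13 members at a mean of 1 TPM in knockdown cells alone and 7 in control cells alone. The member sums and counts are therefore not independent of the rule. The summed level of all lncRNA genes overlapped between the groups (20765 to 22797 and 21176 to 22235 TPM). *NEAT1*, a lncRNA kept in the nucleus, was at 135.42, 160.28 and 194.7 TPM in control and 401.13, 434.05 and 363.51 TPM in knockdown libraries, whereas *MALAT1*, another nuclear lncRNA, was at 114 to 259 and 130 to 238 TPM. The part of nuclear RNA in the members' values was not tested.

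The fold changes were also compared by level and by gene structure. Members with a mean of 1 to 2 TPM (43), 2 to 5 TPM (48) and 5 to 10 TPM (18) had median log2 fold changes of 0.27, 0.26 and 0.32. Coding genes of the same levels had −0.01, 0.01 and 0.00. All knockdown libraries were above all control libraries for 23.3%, 29.2% and 11.1% of these members, and for 11.5%, 11.2% and 9.51% of coding genes. They were below for 4.65%, 4.17% and 5.56% of the members and 10.8%, 10.3% and 9.82% of the coding genes. At 5 to 10 TPM the share of members that were higher without overlap was thus near that of coding genes. Over the 120 members, Spearman's rho of the log2 fold change was −0.03 with the mean level, 0.02 with the GC content, −0.06 with the exon length, −0.19 with the number of exons and 0.17 with the CpG ratio of the promoter, as a description over genes that share the same libraries. The 21 members with 1 exon in their canonical transcript had a median of 0.50 and the 99 with more exons 0.23, whereas other lncRNAs had 0.18 in both classes. The 60 members that share no exon base with a gene on the opposite strand had a median of 0.38, and the 60 that do had 0.18. The protocol describes no step that marks strand, so where exons of both strands overlap, reads of the 2 genes may not be told apart. These splits were chosen after the values had been seen.

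Members with a higher level in knockdown cells were led by transcripts beside genes of varied function. *SAP30-DT*, beside the gene of a subunit of the Sin3 histone deacetylase complex, had the largest fold change among members detected in both groups, with 2.81, 0.84 and 0.58 TPM in control and 7.21, 4.14 and 3.6 TPM in knockdown libraries. The groups did not overlap (log2 fold change 1.38, SE 0.40, adjusted p = 0.145), and it shares 128 exon bases with *SAP30*, which was at 20.4 ± 7.87 and 17.3 ± 1.26 TPM (SD, n = 3 each). *MAP3K2-DT*, beside a kinase gene of the ERK5 pathway, was at 2.25, 0.74 and 0.72 TPM and at 4.3, 3.95 and 3.49 TPM, again with no overlap (1.20, SE 0.32, adjusted p = 0.121). It shares 218 exon bases with *MAP3K2*, which was at 6.81 ± 2.97 and 8.56 ± 2.88 TPM (SD, n = 3 each). Control replicate 1 had the highest control value of both *SAP30-DT* and *MAP3K2-DT*. *SLC20A1-DT*, beside the gene of a sodium-dependent phosphate transporter, was at 2.68, 2.12 and 2.44 TPM in control and 7.57, 6.09 and 4.9 TPM in knockdown libraries. Every knockdown library was thus well above every control library (log2 fold change 1.06, SE 0.24, adjusted p = 0.0832). *USP46-DT*, beside a deubiquitinase gene, was at 1.42, 0.97 and 0.64 TPM and at 4.5, 2.93 and 2.17 TPM (1.04, SE 0.31, adjusted p = 0.152). In this transcript too the groups were apart.

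Further members, named after their values were seen, lay in the same direction. *EIF3J-DT*, beside a gene of a translation initiation factor subunit, was at 7.65, 5.29 and 3.63 TPM in control and 12.46, 11.92 and 10.85 TPM in knockdown libraries, without overlap (log2 fold change 1.01, SE 0.26, adjusted p = 0.112). It shares exon bases with *CTDSPL2*, which was at 21.9 to 29.0 TPM in control and 17.4 to 24.8 TPM in knockdown libraries. *RPAP3-DT*, beside the gene of an HSP90 co-chaperone, was at 0.593 ± 0.0950 and 1.94 ± 0.397 TPM (SD, n = 3 each), and *INSIG1-DT*, beside a gene that restrains cholesterol synthesis, at 1.18 ± 0.534 and 2.89 ± 0.405 TPM (SD, n = 3 each). *GAS6-DT*, beside the gene of the ligand of the AXL receptor kinase, was one of the few of these above 10 TPM, with 10.38, 8.52 and 5.22 TPM in control and 15.76, 12.88 and 12.17 TPM in knockdown libraries. The log2 fold changes of *RPAP3-DT*, *INSIG1-DT* and *GAS6-DT* were 0.88, 0.86 and 0.73 with SE from 0.26 to 0.29, and the groups did not overlap. Differences without overlap were also seen for *KDM7A-DT*, *PDCD6IP-DT*, *TMCC1-DT*, *CNN3-DT*, *RIPK2-DT*, *FLVCR1-DT* and *GMDS-DT*, among others. The control means of *RPAP3-DT* and *KDM7A-DT* were under 1 TPM, so these members met the level rule through their knockdown libraries. Their higher level in knockdown cells is therefore not independent of the rule.

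Among the members lower in knockdown cells, *WDR5B-DT* had the highest level. This transcript, beside the gene of a WDR5 paralogue, was at 25.59, 21.13 and 12.04 TPM in control and 11.53, 11.16 and 9.97 TPM in knockdown libraries. The groups did not overlap, but control replicate 3 was close to the knockdown libraries (log2 fold change −0.73, SE 0.27, adjusted p = 0.234). It shares 1377 exon bases with *KPNA1*, an importin gene on the opposite strand, which was at 67.86, 55.76 and 40.96 TPM in control and 61.13, 51.25 and 41.04 TPM in knockdown libraries. *PCCA-DT*, beside the gene of a propionyl–CoA carboxylase subunit, was at 9.94, 12.75 and 11.4 TPM and at 5.38, 6.84 and 8.42 TPM, with no overlap (−0.66, SE 0.22, adjusted p = 0.190). *PCCA* was at 7.07 ± 1.23 and 8.66 ± 1.48 TPM (SD, n = 3 each), with overlap. *RELA-DT*, beside the gene of the p65 subunit of NF–κB, was at 4.16, 3.57 and 2 TPM and at 1.04, 1.47 and 1.51 TPM (−0.83, SE 0.29, adjusted p = 0.216), and shares 103 exon bases with *RELA*, which was at 70.5 ± 1.82 and 71.9 ± 9.77 TPM (SD, n = 3 each). In this pair, too, the member was lower in every knockdown library while the partner overlapped. *ERBIN-DT* was at 2.75, 2.2 and 3.06 TPM and at 2.14, 0.71 and 1.06 TPM (−0.71, SE 0.31, adjusted p = 0.297), and *ERBIN*, a scaffold of the ERBB2 receptor, at 211 ± 102 and 219 ± 50.2 TPM (SD, n = 3 each). Its annotated 5′ end lies 42007 bases inside *ERBIN*, one of 9 pairs with 5′ ends over 1000 bases apart.

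A few fold changes rested on single libraries. *MRPS30-DT* was at 19.9, 0.33 and 0 TPM in control and 0.14, 0.25 and 0.33 TPM in knockdown libraries, so that control replicate 1 alone gave the log2 fold change of −1.29 (SE 1.02, adjusted p = 0.557), which was 0.10 without it. *DUSP5-DT*, beside the gene of an ERK phosphatase, was at 0.56, 0 and 5.71 TPM and at 0.08, 0.1 and 0.89 TPM, and its log2 fold change of −0.74 (SE 0.67, adjusted p = 0.613) was 0.07 without control replicate 3. *DUSP5* too was highest in control replicate 3, with 22.74, 22.45 and 75.54 TPM in control and 45.51, 51.29 and 51.74 TPM in knockdown libraries. *DHX35-DT* was listed at 0 in all libraries except knockdown replicate 2, with 17.01 TPM, and *PARD3-DT* at 0 in all except knockdown replicates 1 and 3, with 4.98 and 1.44 TPM. No fold change is given for these 2, as a listed 0 without read numbers sets no bound, and without them the median of the other 118 was 0.26 (range −1.29 to 1.38). Partners *DHX35* (12.7 ± 3.42 and 10.4 ± 1.94 TPM), *PARD3* (46.8 ± 13.8 and 36.3 ± 2.09 TPM) and *MRPS30* (38.7 ± 11.3 and 34.9 ± 3.26 TPM; SD, n = 3 each) were expressed in every library. In all, 5 members were listed at 0 in at least 1 library.

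At the limit of the rule, *DDX19A-DT*, *RPL37A-DT* and *NFE2L1-DT* were just inside, with means of 1.035, 1.038 and 1.053 TPM, and *LRP8-DT*, *TMEM263-DT* and *PRKACB-DT* just outside, with 0.983, 0.982 and 0.968 TPM. *DDX19A-DT* was at 0.817 ± 0.586 and 1.25 ± 0.457 TPM and *DDX19A*, an RNA helicase of mRNA export, at 34.6 ± 3.45 and 37.4 ± 2.61 TPM (SD, n = 3 each). *RPL37A-DT* was at 1.17, 1.59 and 0.97 TPM in control and 0.93, 0.8 and 0.77 TPM in knockdown libraries, and *RPL37A* at 3647 ± 402 and 5001 ± 276 TPM (SD, n = 3 each). *NFE2L1-DT* was at 1.35 ± 0.698 and 0.753 ± 0.134 TPM and *NFE2L1*, a transcription factor of proteasome genes, at 149 ± 35.6 and 88.0 ± 13.5 TPM (SD, n = 3 each). *LRP8-DT* was at 0.53 ± 0.308 and 1.44 ± 0.559 TPM (SD, n = 3 each). *MAFG-DT* carries the symbol *MILIP* in Release 44 and so was no member by its symbol. Its level was 2.33, 3.37 and 3.54 TPM in control and 3.47, 4.18 and 5.04 TPM in knockdown libraries, with overlap, and *MAFG* was at 26.9 ± 9.39 and 26.6 ± 3.00 TPM (SD, n = 3 each).

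The members were next set beside their partners. Over the 120 pairs, the log2 fold changes of both genes had a Pearson's r of 0.03 and a Spearman's rho of 0.07, and 57 pairs had the same sign. For 997 pairs of coding genes with 5′ ends within 1000 bases r was 0.12. These are descriptions over pairs that share the libraries. The difference between the fold changes of member and partner, which is the change of their ratio, was above 0 in 86 pairs, with a median of 0.31. The median was 0.39 for the 82 pairs that face away from each other and 0.19 for the 38 with overlapping starts. All knockdown libraries had a higher ratio than all control libraries in 31 pairs (25.8%), against 18.7% of all pairs tested, and a lower one in 10 (8.33%), against 13.2%. In 301 other pairs of a lncRNA and a coding gene the median was 0.23, and these shares were 22.3% and 3.65%.

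**Figure D4:**
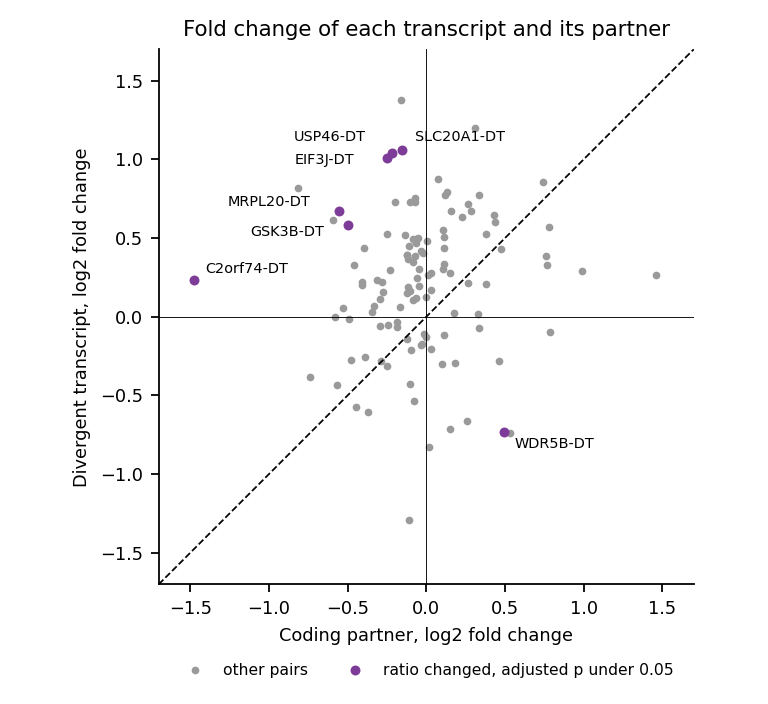
log2 fold change (knockdown minus control) of each divergent transcript (y axis) and its coding partner (x axis) for the pairs with a fold change reported here, with a dashed line at equal change. The named purple points are pairs whose ratio changed, of which *WDR5B-DT* lies below the line and the others above it.

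The ratio changed in 8 of 120 pairs (6.67%) at an adjusted p under 0.05 (limma on the difference of log2(TPM + 1), over 1451 pairs), where 4.2% of all pairs tested changed. It rose in 7, among them *MRPL20-DT*, which met the level rule through its knockdown libraries, and fell in 1. In 301 other pairs of a lncRNA and a coding gene 15 changed and in 997 pairs of coding genes 38. Each of these calls was lost when some single library was left out. None of the 1451 pairs passed the test without control replicate 2, knockdown replicate 1 or knockdown replicate 3, and without knockdown replicate 2 *C2orf74-DT* was the only member of 6 pairs that did.

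*C2orf74-DT* (chr2:61141592-61144969, minus strand) had the largest difference. The transcript itself was at 16.03, 15.27 and 9.3 TPM in control and 17.82, 16.15 and 13.38 TPM in knockdown libraries, with overlap (log2 fold change 0.23, SE 0.24, adjusted p = 0.665). *C2orf74*, an open reading frame of little known function whose 5′ end is 99 bases away, fell from 48.84, 42.96 and 31.16 TPM to 17.22, 13.45 and 11.5 TPM (−1.47, SE 0.23, adjusted p = 0.0344). It was the only called partner, and without control replicate 2 or any 1 of the knockdown libraries its adjusted p was between 0.120 and 0.224. The ratio of the mean levels of member and partner was 0.330 in control and 1.12 in knockdown cells (difference of log2 fold changes 1.71, SE 0.20, adjusted p = 0.0111). The partner was thus the higher one of the pair in every control library and the lower one in every knockdown library.

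The ratio rose by similar amounts in other pairs. For *EIF3J-DT* (chr15:44527257-44537046) and *USP46-DT* (chr4:52659406-52661668) the difference of log2 fold changes was 1.26 each (SE 0.19 and 0.26, adjusted p = 0.0179 and 0.0344), and the partners were at 79.5 ± 28.1 and 64.5 ± 5.95 TPM for *EIF3J* and 9.25 ± 2.83 and 7.85 ± 2.62 TPM for *USP46* (SD, n = 3 each). Both partners overlapped between the groups, so that the rise of the ratio went with the higher level of the divergent transcript. The same held for *SLC20A1-DT* (chr2:112641832-112645720; difference 1.21, SE 0.24, adjusted p = 0.0311), whose partner was at 171 ± 43.8 and 151 ± 16.1 TPM (SD, n = 3 each).

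For *MRPL20-DT* and *GSK3B-DT* the partner was also lower in every knockdown library. *MRPL20-DT* (chr1:1409096-1410618), whose 5′ end is 1803 bases from that of *MRPL20*, was at 1.04, 0.73 and 1.17 TPM in control and 2.26, 2.05 and 2.12 TPM in knockdown libraries, without overlap. Its mean in control cells was under 1 TPM, so it met the level rule through the knockdown libraries, and its rise is not independent of the rule. *MRPL20*, a protein of the mitochondrial ribosome, was at 155 ± 15.5 and 105 ± 2.77 TPM (SD, n = 3 each), lower in every knockdown library (difference 1.23, SE 0.22, adjusted p = 0.0248). *GSK3B-DT* (chr3:120094895-120136783) was at 1.86, 1.42 and 1.45 TPM and at 3.23, 2.9 and 2.45 TPM, also without overlap. It shares 29 exon bases with *GSK3B*, a kinase of glycogen and WNT signalling, which was at 77.3 ± 15.1 and 54.0 ± 5.00 TPM (SD, n = 3 each; difference 1.08, SE 0.21, adjusted p = 0.0285).

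*WDR5B-DT* (chr3:122416200-122443180) was the pair whose ratio fell. *WDR5B* was at 4.26, 3.03 and 1.65 TPM in control and 4.88, 4.63 and 3.73 TPM in knockdown libraries, with overlap. The ratio of the mean levels was 6.57 in control and 2.47 in knockdown cells (difference −1.23, SE 0.23, adjusted p = 0.0285), so the divergent transcript remained the higher one of the pair in both groups. In all 8 pairs the ratio of every knockdown library was on 1 side of every control library.

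**Figure D5:**
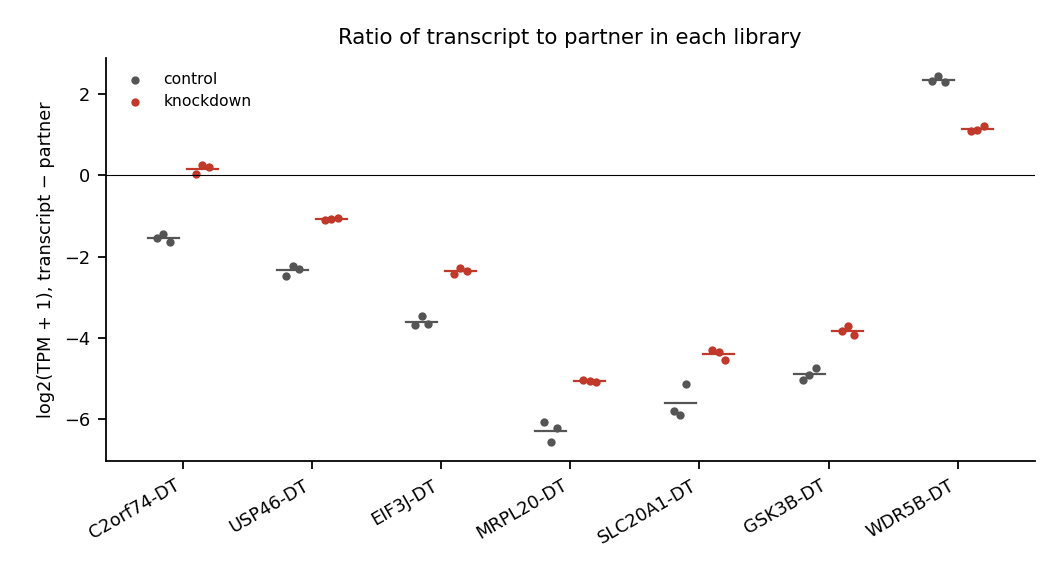
Difference of log2(TPM + 1) between divergent transcript and coding partner (y axis) in each library for 7 of the pairs with a changed ratio, with control libraries in grey, knockdown libraries in red and group means as lines. A value of 0 means equal levels. The groups do not overlap in any pair, and *C2orf74-DT* moves from below 0 to just above it.

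Other pairs with large differences did not pass the test. *TBC1D22A-DT* was at 0.3, 0.85 and 3.82 TPM in control and 3.44, 2.91 and 2.65 TPM in knockdown libraries, and *TBC1D22A* at 21.6 ± 0.516 and 11.9 ± 0.889 TPM (SD, n = 3 each; difference 1.63, SE 0.44, adjusted p = 0.0702). The difference of *SAP30-DT* and *SAP30* was 1.54 (SE 0.47, adjusted p = 0.0933). In the other direction, *GPR155-DT* was at 0.64, 0.59 and 2.57 TPM and at 0.4, 2.92 and 1.96 TPM, whereas *GPR155*, a lysosomal cholesterol sensor, was at 0.78, 0.82 and 0.33 TPM and at 4.87, 2.13 and 3.91 TPM. The partner was higher in every knockdown library (log2 fold change 1.46, SE 0.33, adjusted p = 0.0832), and the difference was −1.19 (SE 0.67, adjusted p = 0.309). *DUSP5-DT*, *MRPS30-DT* and *PCCA-DT* had differences of −1.27, −1.18 and −0.92 with adjusted p of 0.0700, 0.421 and 0.106.

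Sequence features that the rule did not use were compared next. An observed to expected CpG ratio above 0.6 was found at the 5′ end of 110 members (91.7%), 118 of the 120 partners (98.3%), 89.3% of coding genes, 64.9% of antisense-named lncRNA genes and 49.1% of other lncRNA genes tested, with 80.6% over all genes tested. The share of the members was thus near that of coding genes. A -DT symbol already places a member beside a coding gene, and the windows of a pair can cover the same bases. This nearness is therefore not a separate property of the members. A polyadenylation signal (AATAAA or ATTAAA) lay within 1000 bases downstream of the canonical 5′ end of 49 members (40.8%), 28 partners (23.3%), 27.7% of coding genes and 46.8% of other lncRNAs. A strong splice donor (GGTAAG or GGTGAG) lay there in 69 members (57.5%), 83 partners (69.2%), 68.8% of coding genes and 52.1% of other lncRNAs. In the polyadenylation signal and the splice donor the members stood nearer to other lncRNAs than to their partners.

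Finally, the genes known to act on promoter-upstream RNA were examined as a list of 66, all of which were tested. Of these 66, 53 had a log2 fold change below 0 and 13 above. The share below 0 was larger than the 53.7% of all genes and the 56.8% of coding genes tested. The median was −0.27, beside −0.06 for coding genes. All knockdown libraries were below all control libraries for 20 of the 66, against 13.4% of all genes and 14.8% of coding genes, and above for 1, against 9.89%. None was called at an adjusted p under 0.05 (limma), and 14 had an unadjusted p under 0.05, all lower in knockdown cells, against 16.8% of all genes in either direction. Of 13 nuclear exosome genes 11 were below 0 (median −0.37), among them *EXOSC2* with 52.0 ± 15.3 TPM in control and 25.4 ± 1.40 TPM in knockdown cells (SD, n = 3 each; log2 fold change −0.97, SE 0.22, adjusted p = 0.0891) and *EXOSC9* (−0.71, SE 0.19, adjusted p = 0.122). Of 5 cap-binding and ARS2 genes 4 were below 0 (median −0.47), with *NCBP3* at −0.95 and *SRRT*, which encodes ARS2, at −0.79. All 3 U1 snRNP genes were below 0 (median −0.59). Integrator genes (12 of 14 below 0, median −0.23) and cleavage and polyadenylation genes (15 of 17, median −0.23) had smaller differences, as did the restrictor genes (2 of 2, median −0.15), whereas exosome adaptors (3 of 5, median −0.01) and pausing and elongation factors (3 of 7, median 0.04) were balanced. *INTS9* of Integrator was at 10.8 ± 1.55 and 5.17 ± 0.778 TPM (SD, n = 3 each; adjusted p = 0.0832), and *CSTF2* of the cleavage machinery at 39.0 ± 2.43 and 23.9 ± 1.73 TPM (SD, n = 3 each; adjusted p = 0.0949). The relation of this list to the divergent transcripts was not tested.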

How the data were processed

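Poly-T purified RNA of SK–Hep–1 cells was sequenced by the authors in 6 libraries. The authors deposited gene-level TPM with 2 decimals. The methods name fastp, STAR and RSEM, whereas the submitters' processing notes name fastp, HISAT2 2.0.5 and hg38, and which of them made the files is not settled here. All 62700 gene identifiers matched GENCODE Release 44, although the methods name Release 45, and Release 44 was used for names, types and positions. TPM keep no read number, so depth is unknown and precision rests on 3 libraries per group. Where genes of both strands overlap, their TPM are uncertain.

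Genes were tested on the log2(TPM + 1) scale by limma 3.58.1 (lmFit, eBayes with trend, two-sided) in R 4.3.3, where their average over the libraries reached 1 TPM, which left 14020. A fold change on this scale understates the change of low genes. Pairs were fitted likewise on the difference of the 2 genes, for 1451 pairs: members with partners and all opposite-strand pairs of tested genes with 5′ ends within 1000 bases. The fits were tested on simulated data. Samples were grouped by title. The members and lists were chosen with earlier results of these data known. Named by rule were *RAB30-DT*, *RAB30*, *MAFG-DT*, members whose partner was called, the 6 highest and 6 lowest fold changes, the 8 highest and 3 lowest levels with the 3 below the limit, and the 5 largest and 5 smallest pair differences, each with its partner. One member with a changed ratio is counted but not reported here. Members named only for a changed ratio were chosen after their values were seen. Alternatives were pseudocounts, filters, median-of-ratios scaling, removal of the GC trend, arrayWeights (gene-by-gene), a replicate block, single libraries left out and another threshold.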

Additional observations from a re-analysis of the deposited data

How the results depend on the processing

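The direction of the balance held under every alternative run, and the calls did not. The median log2 fold change of the divergent transcripts was 0.37 with a pseudocount of 0.1 and 0.12 with a pseudocount of 5, and 0.22 to 0.29 with each library left out. With removal of the GC trend, 8 divergent transcripts, 13 coding partners and 1191 of all genes were called at an adjusted p under 0.05. arrayWeights gave control replicate 2 and knockdown replicate 2 weights of 2.30 and 3.59 and the others at most 1.07. It called 16, 17 and 1936, and 28 of the 120 pairs of a divergent transcript and its partner, where 312 of all 1451 pairs changed. SLC20A1-DT, EIF3J-DT, SAP30-DT, MAP3K2-DT, USP46-DT, INSIG1-DT and WDR5B-DT were among those called in both. At an adjusted p under 0.1 there were 1 divergent transcript, 5 coding partners, 17 pairs and 455 genes in all. Without a filter on low values 13 genes and 0 partners were called. A mean of at least 5 TPM leaves fewer genes to test, with 18 divergent transcripts at 5 to 10 TPM and 11 above. Of these, 4 were higher and 2 lower without overlap of the groups. The share over all genes is not given for this filter, so these counts are not read as an excess. At 5 to 10 TPM, 11.1% of the divergent transcripts were higher and 5.56% lower without overlap, near the 9.51% and 9.82% of coding genes. Of the 886 pairs tested with this filter 74 changed, among them 3 pairs of a divergent transcript and its partner. Leaving out 1 library at a time, the called divergent transcripts numbered 0 to 3 (3 without control replicate 1) and the called partners 0 to 2. The pairs with a changed ratio numbered 0 to 10 and all genes called 0 to 317. Divergent transcripts without overlap were 35 to 40 higher and 6 to 12 lower. With fewer libraries in a group, any gene lacks overlap more easily, so these 2 ranges are not comparable with the counts from all libraries. The cause of these shifts was not tested.

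With the replicate number as a block, 3 divergent transcripts, 6 partners and 861 genes were called, and with the block and the GC trend removed 3, 10 and 1028. Same-numbered libraries had correlations of 0.41, 0.04 and 0.28 between their deviations from the group means, and as the second is under 0.1 the numbers were treated as names only. Control replicate 2 correlated better with knockdown replicate 3 (0.11) than with its own number, and the other libraries best with their own number, except knockdown replicate 2 (0.06 with control replicate 3). Spearman's rho with GC content also rose with the number in both groups (−0.61, 0.29 and 0.49 in control, −0.52, 0.02 and 0.34 in knockdown libraries). The main fit does not account for anything that same-numbered libraries share.

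Of the 930 values of single genes and pairs under alternatives, 18 changed sign. Without control replicate 1, MRPS30-DT had 0.10 (−2.09 to 0.10 over the libraries left out), MRPS30 0.059 (−0.36 to 0.059), the difference of MRPS30-DT and MRPS30 0.043 (−1.87 to 0.043) and EIF3J 0.022 (−0.44 to 0.022). Without control replicate 2, RNF32-DT had 0.20 (−0.40 to 0.20). Without control replicate 3, DUSP5-DT had 0.068 (−1.30 to 0.068), SAP30 0.12 (−0.38 to 0.12, and 0.067 with arrayWeights) and ERBIN −0.23 (−0.23 to 0.51). Without knockdown replicate 1, COX10-DT had −0.026 (−0.026 to 0.16), and without knockdown replicate 2, RELA had −0.044 (−0.044 to 0.14) and GPR155-DT −0.047 (−0.047 to 0.70).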
